A study of Mus musculus with 24 samples.

Results

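D2A1 is a mouse mammary tumor cell line of the D2 series, derived from hyperplastic alveolar nodules of BALB/c females. The comparison here is of D2A1 tumors grown in BALB/c hosts with D2A1 tumors grown in SCID-beige hosts. The 9 tumors, 4 from BALB/c and 5 from SCID-beige mice, were taken by their labels from 24 libraries in all, and each library is 1 tumor of 1 mouse. The hosts were females of 8 to 12 weeks, and each received 1000000 D2A1 cells in the mammary fat pad (MFP). Tumors were collected at about 500 mm3. Both groups carried the same unmodified tumor cells and differed by host strain. The study reports that growth of D2A1 tumors was delayed in BALB/c against SCID-beige mice. Time from implantation to collection may therefore differ with the host, and its part was not tested. BALB/c mice are immunocompetent and share their background with the tumor cells. SCID-beige mice carry the Prkdc scid and Lyst bg mutations on a C.B background, lack T and B cells and have defective NK cells, but keep macrophages, dendritic cells, neutrophils and stroma. The difference is therefore of adaptive immunity, NK function and any other effect of these mutations together, on 2 related but not identical backgrounds. These cannot be told apart here. The question was how the RNA of D2A1 tumors differed between these hosts.

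Cytotoxic T cells recognize peptides that MHC class I molecules display on tumor cells, and helper T cells recognize peptides on MHC class II. Activated T cells and NK cells secrete interferon-gamma, which signals through the JAK kinases and induces MHC genes, the peptide loading machinery, guanylate-binding proteins, immunity-related GTPases and the chemokine CXCL9. CXCL9 binds CXCR3 and attracts further T cells. B cells and plasma cells express immunoglobulin genes after V(D)J recombination, a step that needs the kinase encoded by Prkdc.

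The depth per tumor ranged from 13566949 to 17260171 counted reads, and its median was 16383566.5 in BALB/c and 15328699 in SCID-beige tumors. Levels are given as CPM (read counts scaled to 1000000 counts of the normalized library), and 3 counts in 1 library correspond to 0.170 to 0.213 CPM, a limit that covers counting error only. Mitochondrial genes held 1.46% to 2.56% of the counts. The first principal component held 41.5% of the variance and did not separate the hosts, whereas the second held 19.8% and placed all 4 BALB/c tumors above all 5 SCID-beige tumors. The first ran with the GC slope of each library (log2 CPM relative to the gene's mean, against GC content). BALB/c tumor 2 stood lowest on it, at -47.6, with the most negative slope. SCID-beige tumors 2 and 1 stood highest, at 66.1 and 52.2, with the most positive slopes. SCID-beige tumor 4, at -19.1, had a slightly positive slope. What this component reflects was not tested. Nothing in the labels states that the tumors came from separate experiments, and p-values measure the spread between these tumors. RNA from whole tumors holds tumor cells and host cells together, so fewer cells of a type and less RNA per cell cannot be told apart.

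The labels were checked against Cd3g and Igkc, genes of the T and B cells that SCID-beige mice lack. Cd3g, a chain of the T cell receptor complex (chr9:44969572-44980431, GRCm38), was counted 70, 26, 23 and 59 times in BALB/c tumors 1 to 4 and 0 times in each SCID-beige tumor. Igkc, the kappa light chain constant region (chr6:70726435-70726966), was counted 165, 61, 90 and 81 times in BALB/c tumors and 0 times in each SCID-beige tumor. Other lymphocyte genes were mixed. Cd8a had 296 counts in all BALB/c and 9 in all SCID-beige tumors, and Ighm had 2335 and 758. Trac had 251 and 229, Cd4 had 86 and 123, and Cd79a had 8 and 18. The levels of the mutated genes themselves did not separate the hosts. Prkdc stood at 17.3 to 25.8 CPM in BALB/c and 16.1 to 28.2 CPM in SCID-beige tumors, and Lyst at 10.6 to 29.7 and 6.39 to 25.9 CPM. The epithelial keratin Krt18 stood at 306 to 427 CPM in BALB/c and 268 to 554 CPM in SCID-beige tumors, and the milk protein gene Csn2 had 2 counts in BALB/c tumor 1 and 0 in every other tumor. Other epithelial genes did not all behave so. Of 9 mammary epithelium and milk genes tested, 4 were higher in BALB/c tumors at an unadjusted p under 0.05, though none passed. Over all 14572 genes tested, 916 were.

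With edgeR's quasi-likelihood test over 14572 genes, 170 genes (1.17%) passed an adjusted p of 0.05 (Benjamini-Hochberg over all genes tested). Of these, 132 (0.906% of genes tested) were higher and 38 (0.261%) were lower in BALB/c tumors. By unadjusted p, 1472 of the 14572 genes were under 0.05, 916 higher and 556 lower in BALB/c tumors. The unadjusted counts given for each list are to be read beside these. The median log2 fold change (BALB/c minus SCID-beige, as in all comparisons) was 1.67 for the genes called higher, -1.07 for those called lower and 0.01 for all genes tested. The values of BALB/c and SCID-beige tumors did not overlap for 130 of the 132 and for all 38, against 3.37% of all genes with every BALB/c tumor above every SCID-beige tumor and 2% with every one below. The count rested on single tumors. It was 27 without BALB/c tumor 4, 64 without BALB/c tumor 1, 60 without SCID-beige tumor 1, 64 without SCID-beige tumor 4 and 111 without SCID-beige tumor 5. All 170 kept their sign and an unadjusted p under 0.05 in each of these, but they were chosen in the same tumors, so this is not independent support.

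T cell genes were higher in tumors from BALB/c mice. Of 24 genes in the T cell list, 17 passed the filter on low counts, 7 rose and none fell, with a median log2 fold change of 1.44 against 0.01 for all genes tested. A gene near 0 in SCID-beige tumors could pass the filter through its BALB/c level alone, so the counts of the members left out are given below. Several of these genes are also named by the study from the same libraries, so they are not independent evidence of a direction.

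The chains of the T cell receptor complex came first. Cd3g had a mean of 2.64 ± 1.33 CPM (SD, n = 4) in BALB/c tumors, at least 13-fold higher than the level that 3 counts per library would give in SCID-beige tumors (adjusted p = 0.0106). Cd3e stood at 3.74, 0.756, 1.05 and 2.9 CPM in BALB/c tumors 1 to 4 and at 0, 0.284, 0, 0.189 and 0 CPM in SCID-beige tumors 1 to 5 (log2 fold change 4.37, SE 0.88, adjusted p = 0.0384). Trbc2, a constant region of the receptor beta chain, stood at 3.98, 0.945, 1.17 and 4.43 CPM and 0, 0.497, 0.0711, 0 and 0 CPM (log2 fold change 4.49, SE 0.95, adjusted p = 0.0464). For each of these 3 genes, BALB/c tumors 1 and 4 were the higher pair and tumors 2 and 3 the lower pair, and all 4 stood above every SCID-beige tumor.

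Trac, the alpha chain constant region, did not follow this pattern. It stood at 5.29, 2.58, 4.07 and 3.13 CPM in BALB/c and 3.94, 2.63, 3.77, 2.65 and 2.63 CPM in SCID-beige tumors (log2 fold change 0.27, SE 0.29, adjusted p = 0.901), with the ranges overlapping. These levels rest on 89, 41, 66 and 55 counts and 56, 37, 53, 42 and 41 counts, so Trac was counted in every SCID-beige tumor, including SCID-beige tumors 1 and 5, which had 0 counts of Cd3g, Cd3e and Trbc2. In the 3 cultures of D2A1 cells, Trac ranged from 0.0532 to 1.84 CPM.

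Among coreceptors, both chains of CD8, which cytotoxic T cells use to bind MHC class I, were higher. Cd8a (chr6:71373427-71379173) stood at 8.73, 1.58, 1.11 and 6.02 CPM in BALB/c and 0, 0.284, 0, 0.126 and 0.193 CPM in SCID-beige tumors (log2 fold change 5.08, SE 0.85, adjusted p = 0.0168). Cd8b1 stood at 3.03, 1.13, 1.85 and 4.15 CPM and 0, 0, 0.0711, 0.315 and 0 CPM (log2 fold change 4.85, SE 0.83, adjusted p = 0.0177). Cd4, the coreceptor for MHC class II, which macrophages and dendritic cells can also express, stood at 1.19, 1.01, 1.48 and 1.48 CPM in BALB/c and 2.11, 2.41, 1.07, 2.33 and 0.449 CPM in SCID-beige tumors (log2 fold change -0.37, adjusted p = 0.914). CD8 genes thus separated the hosts, and Cd4 overlapped between them.

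Cd6, a costimulatory receptor, stood at 0.863 to 2.16 CPM in BALB/c and 0 to 0.252 CPM in SCID-beige tumors (log2 fold change 3.90, SE 0.82, adjusted p = 0.0464). Lck, Zap70, Lat and Skap1, which act downstream of the T cell receptor, did not pass the test. The transcription factor gene Tcf7 stood at 56.4 to 69.9 CPM in BALB/c and 69.6 to 117 CPM in SCID-beige tumors (log2 fold change -0.51, adjusted p = 0.216). Tcf7 had the highest CPM of the list, and the summed CPM of the list overlapped between hosts, at 93.9 to 138 in BALB/c and 89.6 to 139 in SCID-beige tumors.

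The members that the filter left out held few reads. Cd3d had 21, 12, 9 and 33 counts in BALB/c tumors and 0, 0, 0, 1 and 1 in SCID-beige tumors. Foxp3, the transcription factor of regulatory T cells, had 20, 14, 9 and 35 counts and 2, 0, 2, 1 and 2 counts, and Ctla4, an inhibitory receptor, had 13, 1, 6 and 15 counts and 0 in every SCID-beige tumor. Ifng, which encodes interferon-gamma, had 9, 6, 1 and 19 counts and 0 in every SCID-beige tumor, and Tbx21, which encodes the T-bet factor of type 1 responses, had 17, 4, 9 and 15 and 0, 0, 0, 1 and 0. All 5 were counted in every BALB/c tumor, with no fold tested. The bounds computed for those at 0 were at least 2.52-fold higher for Ctla4 and at least 2.52-fold higher for Ifng.

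Of 19 genes in the Treg and checkpoint list, 14 were tested and none passed. By unadjusted p, 9 were under 0.05, all of them higher in BALB/c tumors. Pdcd1, which encodes the inhibitory receptor PD-1, stood at 4.75, 1.51, 2.59 and 3.58 CPM in BALB/c and 0.352, 0.923, 0.284, 0.63 and 0 CPM in SCID-beige tumors (log2 fold change 2.81, adjusted p = 0.0743). Its ligand gene Cd274 (PD-L1) stood at 40.8, 22.4, 13.9 and 21.5 CPM and 13.7, 10.8, 12.9, 22.1 and 13.5 CPM (log2 fold change 0.75, adjusted p = 0.39). The ranges did not overlap for Pdcd1 and overlapped for Cd274. Of 25 cytotoxic and NK genes, 11 were tested and none passed, with 3 under an unadjusted p of 0.05. The activating receptor gene Klrk1 came nearest, at 8.79, 3.02, 3.14 and 10.5 CPM in BALB/c and 0.986, 1.28, 2.7, 0.819 and 0.577 CPM in SCID-beige tumors (log2 fold change 2.33, adjusted p = 0.0573). The granzyme gene Gzmb stood at 3.62, 1.39, 0.678 and 1.7 CPM and 1.2, 0.994, 1.28, 0.063 and 0.321 CPM (log2 fold change 1.27, adjusted p = 0.627), with overlapping ranges.

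Immunoglobulin genes were higher in BALB/c tumors while the B cell surface markers Ms4a1 and Cd79a were near 0 in both hosts. Of 26 B and plasma cell genes, 5 were tested, of which Igkc, Igha and Ighm rose. Igkc had a mean of 5.95 ± 2.66 CPM (SD, n = 4) in BALB/c tumors, at least 29.2-fold higher than 3 counts per library in SCID-beige tumors (adjusted p = 0.00857). Igha, the heavy chain of IgA, stood at 10.5, 2.58, 6.6 and 2.67 CPM in BALB/c and 0, 0.284, 0.0711, 0.252 and 0.321 CPM in SCID-beige tumors (log2 fold change 4.83, SE 0.66, adjusted p = 0.00966). Ighm, the heavy chain of IgM, was present in both hosts, at 26.1, 29.2, 30.3 and 53.4 CPM and 4.72, 18.5, 12.9, 7.49 and 8.34 CPM (log2 fold change 1.74, SE 0.36, adjusted p = 0.0431). Without BALB/c tumor 4, its highest value, the adjusted p of Ighm was 0.198. The study gives the SCID-beige strain as C.B-Igh-1b, a name that refers to the heavy chain locus. Whether heavy chain alleles differ between the hosts and change the alignment of Ighm and Igha was not tested. Jchain, which joins IgA and IgM into polymers, had 62, 5, 21 and 28 counts in BALB/c tumors and 0, 0, 0, 1 and 0 in SCID-beige tumors. Ms4a1 (CD20) had 1 count in BALB/c tumor 1 and 0 in every other tumor, and Cd79a had 8 counts in all BALB/c tumors against 18 in all SCID-beige tumors.

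**Figure D1:**
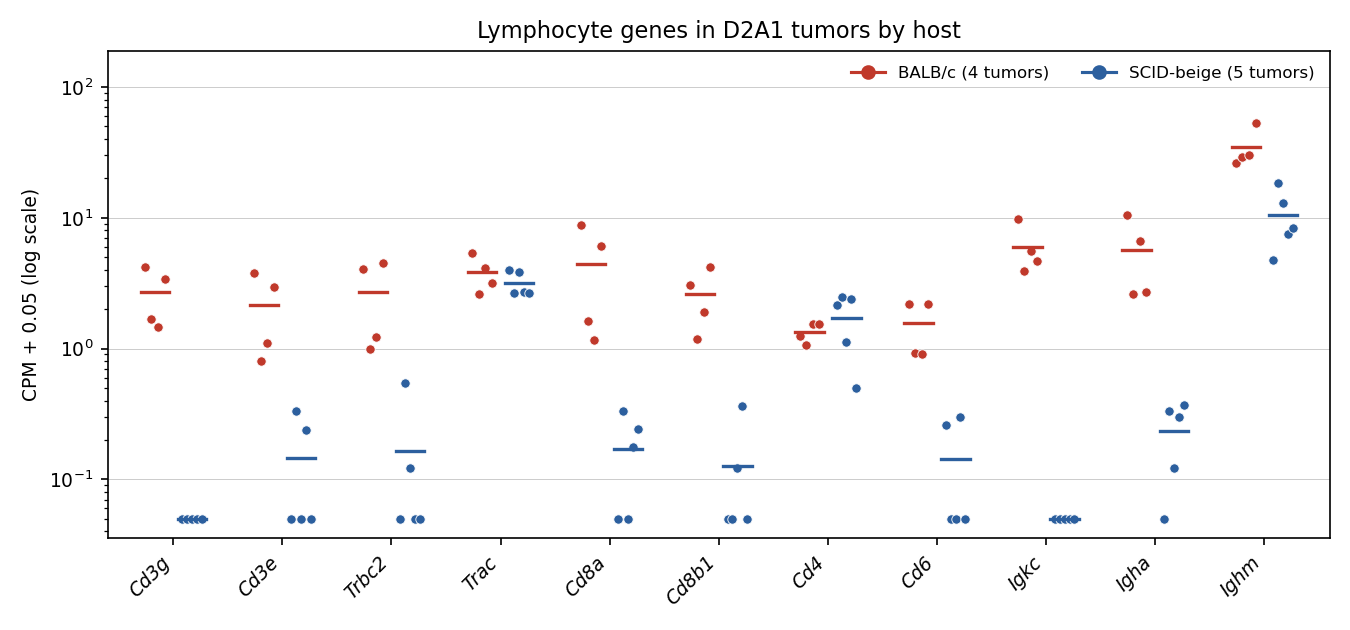
Level of 11 lymphocyte genes in each D2A1 tumor, as CPM plus 0.05 on a log scale so that 0 can be drawn (the lowest points are 0), with each point 1 tumor and each line the mean of 4 BALB/c or 5 SCID-beige tumors. The T cell receptor, CD8 and immunoglobulin genes separate the hosts, with Cd3g and Igkc at 0 in all SCID-beige tumors, whereas Trac and Cd4 overlap.

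The calls of these lists depended on single tumors. Of the 7 T cell genes, 0 passed without BALB/c tumor 4, 2 without BALB/c tumor 1, 3 without SCID-beige tumor 1, 3 without SCID-beige tumor 4, and 4 each without SCID-beige tumor 3 or 5. Of the 3 immunoglobulin genes, Igkc and Igha passed without BALB/c tumor 4 (adjusted p = 0.0269 each).

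Interferon-gamma response genes rose in BALB/c tumors. Of 34 listed genes, 32 were tested, all 32 had a positive log2 fold change (51.8% of all genes tested did), 16 rose and none fell, and the median log2 fold change was 1.44. Their summed CPM ranged from 1195 to 2598 in BALB/c and from 768 to 1055 in SCID-beige tumors. Summed CPM did not overlap between hosts.

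The chemokine gene Cxcl9 (chr5:92321347-92328079, minus strand) had the smallest adjusted p of all genes. It stood at 93.6, 43.3, 34.3 and 106 CPM in BALB/c tumors 1 to 4 and at 4.08, 4.83, 5.54, 3.53 and 3.53 CPM in SCID-beige tumors 1 to 5 (log2 fold change 4.01, SE 0.35, adjusted p = 0.00134), a 16.1-fold difference. The lowest BALB/c tumor was above the highest SCID-beige tumor, and the gene had 0 CPM in all 3 cultures of D2A1 cells. Cxcl10, which binds the same receptor, stood at 62.9, 50.6, 42.5 and 59.4 CPM and 18.4, 42.9, 32.5, 18.1 and 19.1 CPM (log2 fold change 1.04, adjusted p = 0.104), with BALB/c tumor 3 just under SCID-beige tumor 2. Of 26 lymphocyte chemokine and receptor genes, 18 were tested and 3 rose, among them Cxcl9 and Cxcl16 (log2 fold change 0.87, adjusted p = 0.039). Cxcl9 alone passed without BALB/c tumor 1 or 4 or SCID-beige tumor 1, and 2 of the 3 passed without BALB/c tumor 3 or SCID-beige tumor 3, 4 or 5. Cxcr3, the receptor of Cxcl9, had 61 counts in all BALB/c and 34 in all SCID-beige tumors and did not pass.

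Among transcription factors of the response, Batf2, an AP-1 family factor gene, rose by 2.42 on the log2 scale (adjusted p = 0.00966). Irf1 stood at 152, 86.9, 96.7 and 179 CPM and 73.2, 93.6, 79.2, 89.7 and 70.1 CPM (log2 fold change 0.66, adjusted p = 0.211), and the kinase and receptor genes Jak1, Jak2, Ifngr1 and Ifngr2 did not pass. Among the effectors, 7 of 10 guanylate-binding protein genes and 5 of 7 immunity-related GTPase genes tested rose, proteins known for restricting intracellular pathogens. Gbp4 stood at 106, 45.9, 13.6 and 78.2 CPM and 4.29, 5.25, 12.3, 9.13 and 9.5 CPM (log2 fold change 2.91, SE 0.50, adjusted p = 0.0177), Iigp1 at 131, 67.1, 29.5 and 125 CPM and 9.08, 7.81, 18.8, 11.4 and 15.1 CPM (log2 fold change 2.83, SE 0.41, adjusted p = 0.0106), and Tgtp1 at 31.2, 8.32, 5.43 and 24.6 CPM and 1.41, 0.852, 2.84, 1.39 and 0.577 CPM (log2 fold change 3.62, SE 0.57, adjusted p = 0.0139). For all 3, BALB/c tumors 1 and 4 were highest and BALB/c tumor 3 was lowest, yet above every SCID-beige tumor. Tgtp1 and Tgtp2, and Gbp2 and Gbp2b, are near-identical pairs between which reads may have been divided, so their single values are uncertain. Tgtp2 (2.84), Gbp2 (1.70) and Gbp2b (1.98) rose as well.

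Genes known mainly as type I interferon-stimulated were measured beside them. All 38 were tested, all 38 had a positive log2 fold change, with a median of 0.43, and 1 passed the test, Stat2 (log2 fold change 0.98, SE 0.17, adjusted p = 0.0191), which transmits the type I signal. Stat2 lost its call without BALB/c tumor 1 or 4 or SCID-beige tumor 1 or 4, which left 0 of 38. By unadjusted p, 17 of 38 were under 0.05, all higher in BALB/c tumors. Isg15 stood at 66.1 CPM in BALB/c and 53.1 CPM in SCID-beige tumors on average (log2 fold change 0.32, adjusted p = 0.839), and Ifit1 at 45 and 35.7 CPM (log2 fold change 0.34, adjusted p = 0.765). Irf7 did not pass (log2 fold change 0.20, adjusted p = 0.899). The 2 interferon lists differ in how many members passed, 16 of 32 and 1 of 38, but whether the lists differ was not tested, and many genes respond to both kinds of interferon.

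Promoters of response genes, shown because the members moved together, were read from RefSeq windows of GRCm38.p6 that run from 250 bases before to 50 bases after the start of the gene, 5′ to 3′. Capitals mark the motifs searched, on both strands, which were GAS (the gamma-activated site, TTCNNNGAA) and ISRE (the interferon-stimulated response element, GAAA, any 2 bases and GAAA again, or the reverse complement). No GAS match overlapped an ISRE match in these windows.
Tgtp1 (chr11:48992197-48992496, minus strand): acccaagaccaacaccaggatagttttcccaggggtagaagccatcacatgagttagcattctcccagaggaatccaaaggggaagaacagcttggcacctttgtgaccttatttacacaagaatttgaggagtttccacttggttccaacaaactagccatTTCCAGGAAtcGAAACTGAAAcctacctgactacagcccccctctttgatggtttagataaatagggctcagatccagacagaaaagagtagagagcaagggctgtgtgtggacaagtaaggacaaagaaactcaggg
Igtp (chr11:58199306-58199605, plus strand): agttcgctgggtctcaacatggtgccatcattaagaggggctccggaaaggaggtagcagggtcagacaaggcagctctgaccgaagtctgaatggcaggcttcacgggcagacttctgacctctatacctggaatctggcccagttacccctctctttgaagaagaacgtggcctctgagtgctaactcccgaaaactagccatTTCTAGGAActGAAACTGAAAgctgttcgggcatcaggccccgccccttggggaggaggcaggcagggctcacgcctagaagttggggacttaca
Gbp5 (chr3:142496684-142496983, plus strand): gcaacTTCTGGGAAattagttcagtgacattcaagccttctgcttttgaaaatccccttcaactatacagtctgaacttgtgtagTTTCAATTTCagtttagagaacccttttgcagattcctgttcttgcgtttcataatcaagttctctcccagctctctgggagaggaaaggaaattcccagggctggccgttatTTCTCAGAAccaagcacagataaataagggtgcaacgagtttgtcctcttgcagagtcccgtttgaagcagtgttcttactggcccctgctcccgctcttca
Gbp7 (chr3:142530086-142530385, plus strand): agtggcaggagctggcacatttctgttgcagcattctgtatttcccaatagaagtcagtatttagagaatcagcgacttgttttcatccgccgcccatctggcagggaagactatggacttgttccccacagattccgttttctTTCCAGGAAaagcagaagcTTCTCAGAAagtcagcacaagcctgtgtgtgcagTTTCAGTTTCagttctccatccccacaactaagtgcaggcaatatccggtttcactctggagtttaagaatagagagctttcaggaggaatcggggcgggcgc
Cxcl9 (chr5:92328030-92328329, minus strand): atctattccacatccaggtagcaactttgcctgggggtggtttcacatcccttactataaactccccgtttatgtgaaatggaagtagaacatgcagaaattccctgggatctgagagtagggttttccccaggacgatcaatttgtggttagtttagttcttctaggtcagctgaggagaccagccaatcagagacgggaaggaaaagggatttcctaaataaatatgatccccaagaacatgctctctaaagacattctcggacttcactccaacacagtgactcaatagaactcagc
Tgtp1 holds GAS beginning 88 and ISRE beginning 77 bases before the start, and Igtp, another immunity-related GTPase gene, has the same order, at 45 and 34 bases. Gbp5 and Gbp7 each hold 2 GAS and 1 ISRE match, and Cxcl9 holds neither in this window, which says only that these letters are absent from it. Among genes called higher, 92 of 132 (69.7%) had a window, and 15 of these held GAS (16.3%) and 20 held ISRE (21.7%). Over all 27025 promoters the shares were 8.47% and 3.49%, and of 23 windows of genes called lower, 1 held GAS and 0 held ISRE. Of the 92 windows of genes called higher, 28 held either motif and 7 held both. Tgtp1, Igtp, Gbp5 and Gbp7, which hold both, are therefore not typical of the set. Because under 80% of the genes called higher had a window, the comparison of shares is void, and the counts describe only the windows at hand.

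RNA of some MHC class I and peptide loading genes was higher in BALB/c tumors as well. Of 28 listed genes, 26 were tested, 11 rose and none fell, with a median log2 fold change of 1.06. H2-D1, a classical heavy chain (chr17:35262730-35267499), stood at 1413, 932, 1254 and 2118 CPM in BALB/c and 397, 580.8, 404, 442 and 377 CPM in SCID-beige tumors (log2 fold change 1.70, SE 0.23, adjusted p = 0.00966). H2-K1, the other classical chain measured, stood at 126, 81, 94.5 and 145 CPM and 47.8, 53.8, 47.3, 43.8 and 33.4 CPM (log2 fold change 1.30, SE 0.20, adjusted p = 0.0115). B2m, the light chain that all class I heavy chains need, stood at 1944, 1166, 1615 and 2448 CPM and 807, 968, 722, 728 and 639 CPM (log2 fold change 1.21, SE 0.21, adjusted p = 0.0188). The hosts did not overlap for any of these 3 genes. Cultured D2A1 cells had 71.0 CPM of H2-D1, 10.9 CPM of H2-K1 and 321 CPM of B2m on average, without a test across tables.

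The nonclassical genes H2-Q4, H2-Q6, H2-Q7, H2-T10 and H2-T22 rose, by 1.19 for H2-T22 to 3.62 for H2-Q7. H2-Q7 stood at 12.7, 6.55, 9.93 and 15.5 CPM in BALB/c and 0.915, 1.49, 0.853, 1.13 and 0.128 CPM in SCID-beige tumors (log2 fold change 3.62, SE 0.47, adjusted p = 0.0089). These heavy chains are near-identical copies, and the reference is of C57BL/6J mice, whose MHC alleles differ from those of the tumor cells, so the division of reads among them is uncertain, by the same alignment in both groups. Tap1, a subunit of the transporter that carries peptides to class I molecules, rose (log2 fold change 1.87, adjusted p = 0.0106), and Tap2 did not pass (log2 fold change 0.94, adjusted p = 0.121). The immunoproteasome subunits Psmb8 (log2 fold change 1.58, adjusted p = 0.0174) and Psmb9 (log2 fold change 2.20, adjusted p = 0.0167) rose, while Psmb10 did not pass (log2 fold change 0.73, adjusted p = 0.189). The chaperone genes Calr, Canx, Pdia3 and Tapbp, which act on newly made class I molecules, had log2 fold changes of -0.02 to 0.37 and did not pass. Nlrc5 (chr8:94434356-94527272), the transactivator of class I genes, stood at 132, 61.6, 24 and 75.2 CPM and 1.41, 5.96, 9.52, 15.9 and 12.7 CPM (log2 fold change 3.0, SE 0.58, adjusted p = 0.0322). Its levels spread widely within each host, from 24 to 132 CPM in BALB/c and from 1.41 to 15.9 CPM in SCID-beige tumors, without overlap. Without BALB/c tumor 4, the adjusted p of Nlrc5 was 0.11.

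MHC class II genes, which antigen-presenting cells express, rose too. Of 16 listed genes, 13 were tested and 8 rose, with a median log2 fold change of 1.30. Ciita, the class II transactivator, stood at 21.2, 10.9, 5.92 and 36.6 CPM in BALB/c and 1.9, 3.12, 2.27, 3.27 and 1.93 CPM in SCID-beige tumors (log2 fold change 2.90, SE 0.46, adjusted p = 0.0139). Cd74, the invariant chain, stood at 1186, 528, 698 and 2294 CPM and 144, 191, 183, 129 and 117 CPM (log2 fold change 2.94, SE 0.38, adjusted p = 0.0089). H2-Aa, H2-Ab1 and H2-Eb1, which encode chains of class II molecules, rose by 2.77, 2.79 and 2.97. Cd74 and the 3 chains were highest in BALB/c tumor 4, next in tumor 1 and lowest in tumor 2. The peptide exchange genes H2-DMa (log2 fold change 1.20, adjusted p = 0.0431) and H2-DMb1 (log2 fold change 2.59, adjusted p = 0.0208) and the protease gene Ctss (log2 fold change 1.30, adjusted p = 0.0384) rose, whereas Rfx5, Rfxap and Rfxank, which bind class II promoters constitutively, had log2 fold changes of -0.16 to -0.02 and did not pass. In cultured D2A1 cells, H2-Aa and H2-Eb1 were at 0, H2-Ab1 at 0.0189 CPM and Cd74 at 0.208 CPM.

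**Figure D2:**
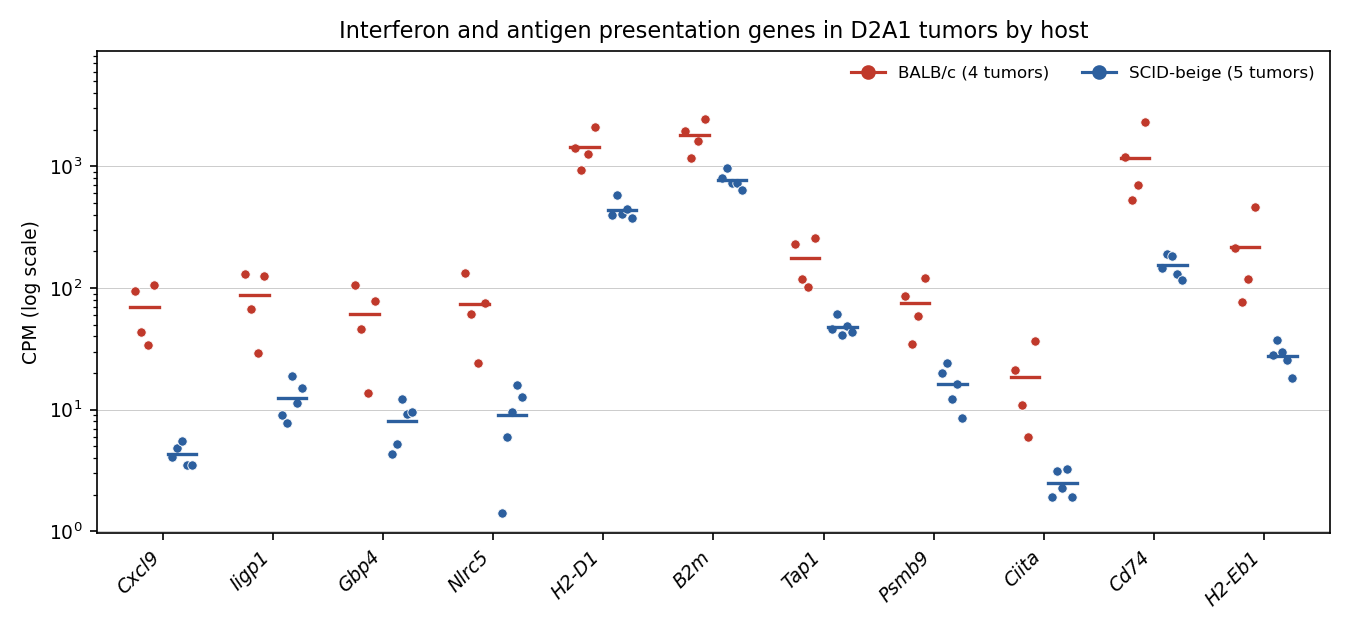
Level of 11 interferon response and antigen presentation genes in each D2A1 tumor, as CPM on a log scale, with each point 1 tumor and each line the mean of 4 BALB/c or 5 SCID-beige tumors. Every BALB/c tumor lies above every SCID-beige tumor for each gene drawn, and tumors 1 and 4 lie above tumors 2 and 3 for Cxcl9, Iigp1 and Gbp4.

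Without BALB/c tumor 4, 3 of the interferon-gamma list passed in place of 16, 5 of the class I list in place of 11 and 3 of the class II list in place of 8. Without BALB/c tumor 1, these counts were 8, 6 and 4, without SCID-beige tumor 1 they were 8, 7 and 3, and without SCID-beige tumor 4 they were 8, 6 and 4. Without SCID-beige tumor 3 the class II list had 5. Cxcl9 (adjusted p = 0.00342), H2-Q6 (0.0153) and Cd74 (0.0153) were among those that passed without BALB/c tumor 4.

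Myeloid cells, which both hosts have, differed in some genes and not in others. Of 23 macrophage genes, 20 were tested and 2 rose, with a median log2 fold change of 0.63 and 19 of 20 positive. By unadjusted p, 12 of the 20 were under 0.05, all of them higher in BALB/c tumors, against 916 higher of all 14572 genes tested. Fcgr4, an activating receptor for IgG, stood at 42.3, 25.2, 34 and 78.6 CPM in BALB/c and 7.04, 8.8, 11.4, 9.01 and 5.07 CPM in SCID-beige tumors (log2 fold change 2.45, SE 0.33, adjusted p = 0.00966). Csf1r, the receptor for the macrophage growth factor CSF1, stood at 259, 278, 392.3 and 454 CPM and 160.3, 188, 201, 144 and 149 CPM (log2 fold change 1.04, SE 0.19, adjusted p = 0.0227). The widely used macrophage marker Adgre1 (F4/80) stood at 63.1, 85.7, 61.7 and 91.9 CPM and 26.1, 37.7, 54.4, 69.4 and 48.1 CPM (log2 fold change 0.68, adjusted p = 0.329), and Cd68 did not pass (log2 fold change 0.06, adjusted p = 0.968). The summed CPM of the list ranged from 3984 to 8230 in BALB/c and from 2888 to 4792 in SCID-beige tumors, with overlap. Of the pan-leukocyte genes, 1 of 11 rose (Lcp1, log2 fold change 0.61, adjusted p = 0.0432), and Ptprc (CD45) stood at 76.4, 59.9, 32.8 and 58.2 CPM and 12.1, 22.2, 34, 35.3 and 35.9 CPM (log2 fold change 1.03, adjusted p = 0.192). All 11 had a positive log2 fold change, and 10 were higher at an unadjusted p under 0.05. Their summed CPM did not overlap between hosts, at 1036 to 1394 in BALB/c and 638 to 933 in SCID-beige tumors. The part of leukocytes in the differences of the response genes was not tested.

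Of 18 myeloid chemokine, growth factor and receptor genes tested, 3 rose. The receptor genes Ccr1 (log2 fold change 1.0, adjusted p = 0.0385), Ccr2 (log2 fold change 1.25, adjusted p = 0.0279) and Cx3cr1 (log2 fold change 0.99, adjusted p = 0.027), found on monocytes and macrophages, rose, and none of 14 ligand and growth factor genes tested passed. Whether receptors and ligands differ was not tested. Ccl2, the ligand of CCR2, did not pass (log2 fold change 0.13, adjusted p = 0.938), and Cx3cl1, the ligand of CX3CR1, did not pass (log2 fold change 0.08, adjusted p = 0.948). Among dendritic cell genes, 1 of 12 tested rose, the integrin gene Itgax (log2 fold change 0.92, adjusted p = 0.0481), and the leukocyte integrin gene Itgal, which encodes the alpha chain of LFA-1, stood at 59.5, 39.1, 29.2 and 56.8 CPM and 6.34, 7.38, 16.3, 15.9 and 12 CPM (log2 fold change 1.99, SE 0.32, adjusted p = 0.0139). Without BALB/c tumor 4, SCID-beige tumor 1, SCID-beige tumor 4 or SCID-beige tumor 5, 0 of the 3 receptor genes passed, and 1 passed without BALB/c tumor 1. Itgax lost its call in 7 of the 9 fits that left out 1 tumor (all but those without BALB/c tumor 2 or SCID-beige tumor 2), Lcp1 in all 9, Csf1r in 5 (BALB/c tumors 3 and 4, SCID-beige tumors 1, 4 and 5) and Itgal in 1 (BALB/c tumor 4), whereas Fcgr4 kept it in all 9.

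None of 8 neutrophil genes tested passed, with 3 of the 8 positive, 1 higher and 2 lower by an unadjusted p under 0.05, and a median log2 fold change of -0.60. S100a9 stood at 11.8, 6.43, 9.62 and 4.83 CPM in BALB/c and 30.6, 14.3, 10.2, 67.4 and 14.4 CPM in SCID-beige tumors (log2 fold change -1.75, adjusted p = 0.187), with SCID-beige tumor 4 far above the rest. Mast cell genes stood higher in BALB/c tumors, also without passing. The tryptase gene Tpsb2 stood at 1.01, 1.39, 5.73 and 3.92 CPM and 0.141, 0.497, 0.853, 0.693 and 0.385 CPM (log2 fold change 2.53, adjusted p = 0.0771), and the chymase gene Cma1 at 2.08, 2.52, 5.8 and 3.47 CPM and 0.563, 0, 1.28, 0.063 and 1.16 CPM (log2 fold change 2.49, adjusted p = 0.184). All 4 mast cell genes tested had an unadjusted p under 0.05, and 3 of 4 did not overlap. For Tpsb2, Cma1 and Mcpt4 the highest tumors were BALB/c tumors 3 and 4. Among 11 complement genes tested, all had a positive log2 fold change, with a median of 0.73, and none passed. C3 stood at 67.9, 64.2, 112 and 77.6 CPM and 23.2, 16.5, 21.3, 55 and 44.4 CPM (log2 fold change 1.32, adjusted p = 0.0954), without overlap.

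Of the 132 genes called higher, 57 were in a list. Among the others, Ubd, a ubiquitin-like modifier gene, stood at 2.79, 1.2, 0.74 and 2.95 CPM in BALB/c and 0.0704, 0, 0.213, 0.126 and 0 CPM in SCID-beige tumors (log2 fold change 4.43, SE 0.76, adjusted p = 0.0179). Calhm6, a member of the calcium homeostasis modulator family, stood at 3.5, 1.32, 2.4 and 6.53 CPM and 0.634, 0.284, 0.426, 0.126 and 0 CPM (log2 fold change 3.54, SE 0.71, adjusted p = 0.0378). Both were among the 12 largest rises, and neither passed without BALB/c tumor 4 (adjusted p = 0.0944 for Ubd and 0.193 for Calhm6). Tgfbi, a matrix protein gene induced by TGF-beta, was the only 1 of 17 epithelial-mesenchymal genes tested to rise (log2 fold change 0.97, adjusted p = 0.0106), and it lost its call without BALB/c tumor 4. Genes chosen after their values were seen include Tnfsf13b, which encodes the B cell survival factor BAFF (log2 fold change 1.79, adjusted p = 0.0087), Il15ra, the receptor chain that presents interleukin-15 (log2 fold change 1.33, adjusted p = 0.0433), Il18bp, a decoy that binds interleukin-18 (log2 fold change 1.39, adjusted p = 0.0433), and Cybb, the catalytic subunit of the phagocyte oxidase (log2 fold change 1.36, adjusted p = 0.0283).

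**Figure D3:**
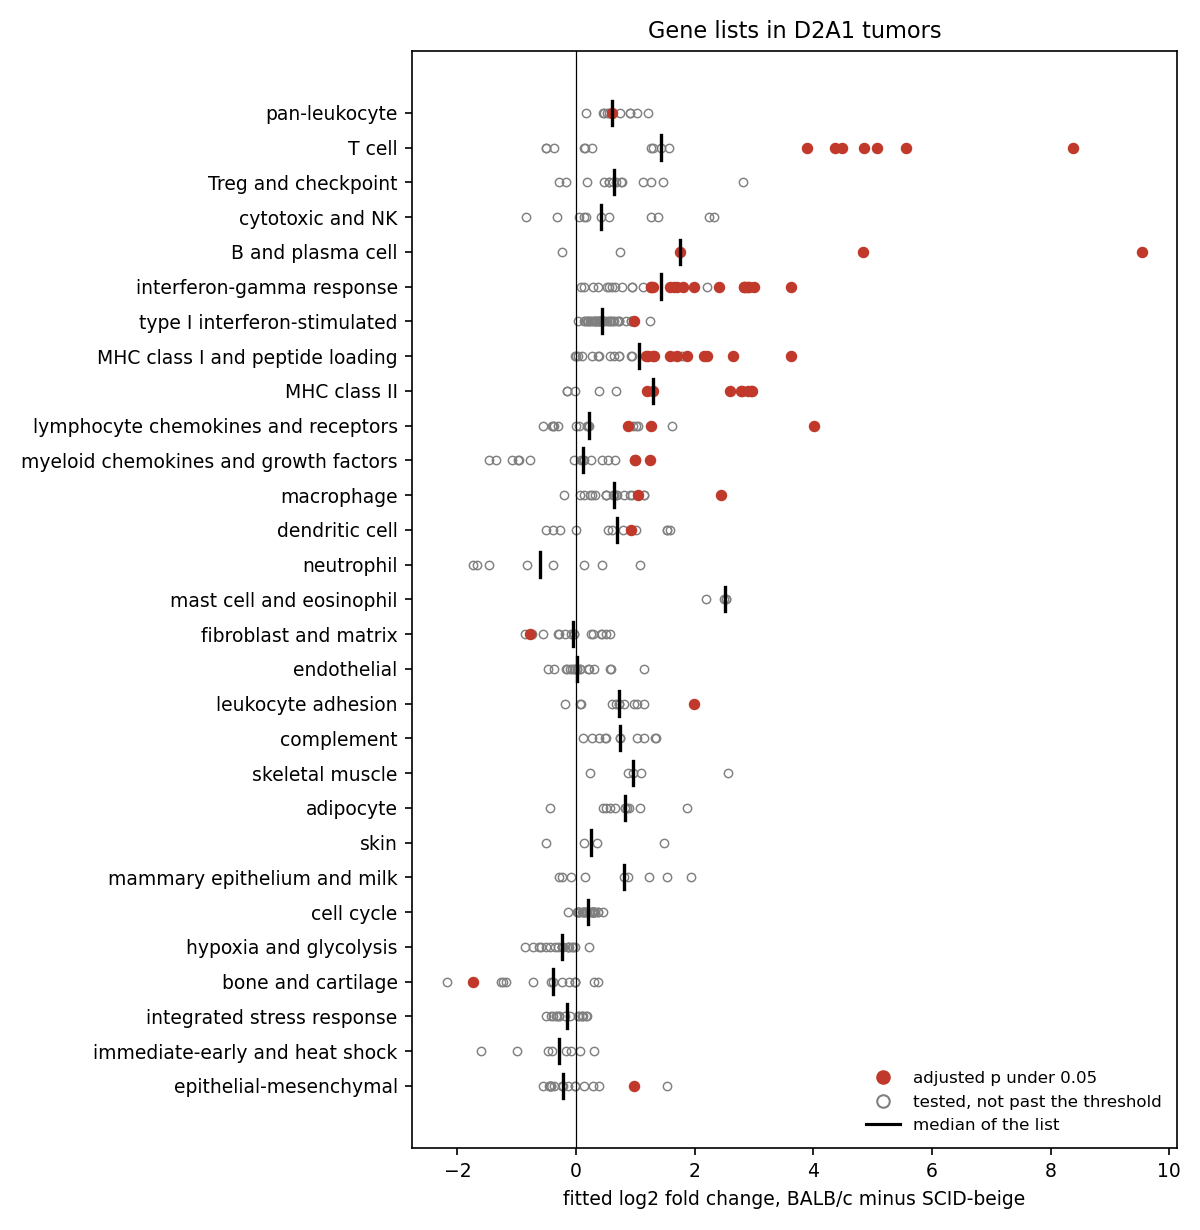
Fitted log2 fold change (BALB/c minus SCID-beige) of every tested member of 29 gene lists in D2A1 tumors, with filled points for adjusted p under 0.05, open points for members that did not pass and a black line at the median of each list. Filled points gather in the T cell, B and plasma cell, interferon-gamma, MHC class I and MHC class II lists, and the values of Cd3g and Igkc, the farthest right, depend on the prior count because SCID-beige tumors had 0 counts.

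Tumor cell and tissue programs did not pass the test. Of all 14572 genes tested, 1472 had an unadjusted p under 0.05. None of 28 cell cycle genes passed, with a median log2 fold change of 0.20, 27 positive and 2 under an unadjusted p of 0.05. Mki67 averaged 197 CPM in BALB/c and 159 CPM in SCID-beige tumors (log2 fold change 0.30, adjusted p = 0.834). None of 19 hypoxia and glycolysis genes passed, with a median of -0.24, 18 negative and 4 under an unadjusted p of 0.05, all lower. None of 16 integrated stress response genes passed, with 1 under an unadjusted p of 0.05, and none of 8 immediate-early and heat shock genes, with 0. None of 18 endothelial genes passed, with 2 under an unadjusted p of 0.05 and a median of 0.02, and the vessel marker Pecam1 did not pass (log2 fold change 0.06, adjusted p = 0.951). Markers of tissue near the fat pad did not pass either, for adipocytes (11 tested, 2 under an unadjusted p of 0.05), skeletal muscle (5 and 1), skin (4 and 0) and mammary epithelium and milk (9 and 4). The adipocyte list summed to 143 to 519 CPM in BALB/c and 78.4 to 316 CPM in SCID-beige tumors, and the muscle list to 15.9 to 103 and 7.64 to 30.9 CPM, with BALB/c tumor 1 highest and Acta1 at 37.2 CPM in it.

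Of the 38 genes lower in BALB/c tumors, 2 were in a list. The largest falls were of Snhg11, a small nucleolar RNA host gene, and Ephb1, both at low levels. Snhg11 had at most 3 counts in any BALB/c tumor and stood at 1.9, 0.71, 0.924, 2.83 and 0.962 CPM in SCID-beige tumors (log2 fold change -3.92, SE 0.82, adjusted p = 0.0435). Ephb1, a receptor tyrosine kinase for ephrin-B ligands, stood at 0.356, 0.378, 0.247 and 0.398 CPM in BALB/c and 1.69, 1.99, 3.41, 0.945 and 2.18 CPM in SCID-beige tumors (log2 fold change -2.54, SE 0.47, adjusted p = 0.0263). The fall with the smallest p was of D630003M21Rik (chr2:158182533-158229222), a gene without an assigned role here, at 5.58, 6.55, 10.3 and 4.66 CPM and 23.2, 26.9, 33.5, 27.1 and 31 CPM (log2 fold change -2.07, SE 0.24, adjusted p = 0.0087). In each case the highest BALB/c tumor was below the lowest SCID-beige tumor. D630003M21Rik kept its call without any 1 tumor, whereas Snhg11 lost it in 8 and Ephb1 in 7 of the 9 fits that left out 1 tumor, with adjusted p = 0.132 and 0.104 without BALB/c tumor 4.

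The 2 falls that were in a list were of a bone and a matrix gene. Ibsp, bone sialoprotein (chr5:104299171-104311469), stood at 19.6, 46.6, 42.4 and 22.6 CPM in BALB/c and 101, 82.8, 130.3, 124 and 109 CPM in SCID-beige tumors (log2 fold change -1.74, SE 0.27, adjusted p = 0.0137), with BALB/c tumors 1 and 4 lowest. Of 22 bone and cartilage genes, 15 were tested and Ibsp was the only one to pass, with 5 lower and 0 higher by an unadjusted p under 0.05 and a median of -0.39. Alkaline phosphatase, Alpl, stood at 3.44 to 4.38 CPM and 6.11 to 12.8 CPM (log2 fold change -1.18, adjusted p = 0.0708), and the collagenase gene Mmp13 at 40.5, 20.9, 12.6 and 7.84 CPM and 58.1, 37.6, 67.8, 217.6 and 81 CPM (log2 fold change -2.18, adjusted p = 0.103). Spp1, osteopontin, did not pass (log2 fold change -0.13, adjusted p = 0.922). Of 16 fibroblast and matrix genes 1 fell, Col6a1, a chain of collagen VI, at 414, 511, 514 and 472 CPM and 874, 800.1, 776, 836 and 808 CPM (log2 fold change -0.78, SE 0.13, adjusted p = 0.0166). The gene of its partner chain Col6a2, beside it on chromosome 10 and outside the lists, was chosen after its values were seen and fell by 0.85 on the log2 scale (adjusted p = 0.0106). Without BALB/c tumor 4 neither Ibsp nor Col6a1 passed, and Col6a1 was also lost without BALB/c tumor 1 or SCID-beige tumor 1. The fibrillar collagen genes Col1a1, Col1a2 and Col3a1 did not pass, and Pdgfrb, which pericytes and fibroblasts express, did not pass (log2 fold change -0.74, adjusted p = 0.175).

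The rest of the largest falls had varied roles. Plxdc1 (TEM7), named for its expression in tumor vessels, stood at 16.7, 14.2, 19.5 and 15.4 CPM in BALB/c and 53.4, 34, 53.7, 44.8 and 60.1 CPM in SCID-beige tumors (log2 fold change -1.58, SE 0.19, adjusted p = 0.0087). Nkd2, an inhibitor of Wnt signaling that binds Dishevelled, stood at 67.4, 72.8, 66.5 and 41.8 CPM and 182, 144, 190.3, 195 and 135 CPM (log2 fold change -1.45, SE 0.19, adjusted p = 0.00966). The T-box factor gene Tbx2 stood at 4.81, 2.58, 4.38 and 5.28 CPM and 11.8, 12, 12.2, 13.6 and 14.1 CPM (log2 fold change -1.58, SE 0.23, adjusted p = 0.0106). The groups did not overlap for any of these 3 genes, and each kept its call without any 1 tumor. Rerg, a Ras-like GTPase gene (log2 fold change -1.74, adjusted p = 0.0142), Fam189a2 (log2 fold change -1.56, adjusted p = 0.0173), the iron exporter gene Slc40a1 (log2 fold change -1.47, adjusted p = 0.0464), the orphan receptor gene Gprc5c (log2 fold change -1.32, adjusted p = 0.0367) and the lipocalin gene Apod (log2 fold change -1.32, adjusted p = 0.0498) fell as well. Without BALB/c tumor 4, Rerg, Fam189a2, Slc40a1, Gprc5c and Apod did not pass. Of the 38, 15 averaged under 1 CPM in cultured D2A1 cells, and so did 98 of the 130 genes called higher that had a row in the culture table. The same share over all genes tested was not computed, so neither count is read as high or low.

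**Figure D4:**
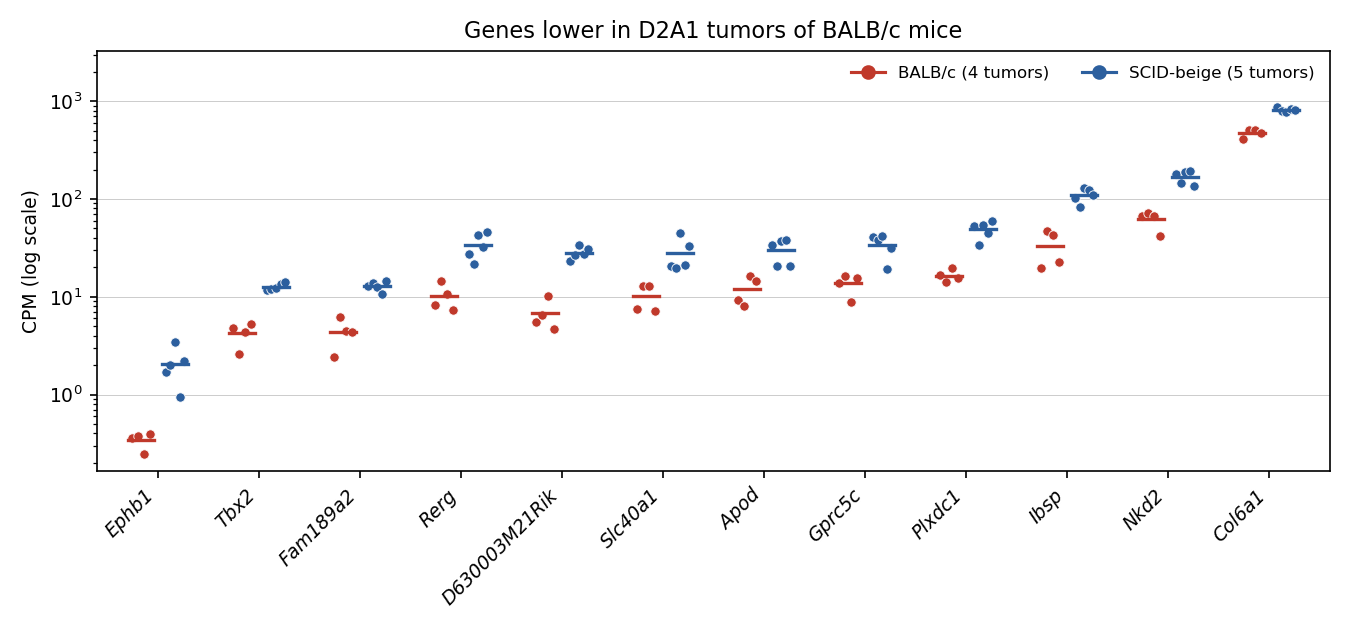
Level of 12 genes lower in D2A1 tumors of BALB/c mice, as CPM on a log scale, with each point 1 tumor and each line the mean of 4 BALB/c or 5 SCID-beige tumors. The groups do not overlap for any gene drawn, from Ephb1 at 0.247 to 0.398 CPM in BALB/c and 0.945 to 3.41 CPM in SCID-beige tumors to Col6a1 at 414 to 514 CPM in BALB/c and 776 to 874 CPM in SCID-beige tumors.

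The same host comparison in tumors of the D2.1 line, a line of the same series that is reported to stay dormant after spread, grown in 4 BALB/c and 5 SCID-beige mice, shows which values differ between lines. In a fit of all 18 tumors, 3 of 16036 genes (0.0187%) had a host effect that differed between lines by the interaction test, with 1355 at an unadjusted p under 0.05. They were Trac, D630003M21Rik and Crmp1, which encodes a protein of axon guidance. For Trac, the log2 fold change was 0.27 in D2A1 and 4.88 in D2.1 tumors (interaction of -4.61, adjusted p = 0.0173). For D630003M21Rik it was -2.07 and 0.32 (interaction of -2.39, adjusted p = 0.0173), and for Crmp1, which lies outside the lists, -0.70 and 5.97 (interaction of -6.67, adjusted p = 0.0173). None of the 3 passed without D2A1 BALB/c tumor 1 or 4 or D2.1 BALB/c tumor 3 or 4, where the count was 0, and the count reached 12 without D2.1 SCID-beige tumor 4, 8 without D2.1 BALB/c tumor 2 and 1 without D2A1 BALB/c tumor 3 or D2.1 SCID-beige tumor 2.

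The 132 genes called higher in D2A1 tumors had a median log2 fold change of 1.13 in D2.1 tumors, where 122 had the same sign and 45 were also past the threshold (1.63% of 16036 genes were, in either direction). The 38 called lower had a median of 0.09 in D2.1 tumors, 10 had the same sign and 0 were past the threshold. The genes were chosen by their values in D2A1 tumors, which by itself makes those values the larger ones, and beyond D630003M21Rik no difference between lines passed for these 170. By unadjusted p of the interaction test, 99 of the 170 were under 0.05, against 1355 of all 16036 genes. The same choice of genes raises that count too. An adjusted p above 0.05 does not show that the lines are alike. For the interferon-gamma list, the median was 1.44 in D2A1 and 0.97 in D2.1 tumors, and for the T cell list, with 17 and 24 members measured, 1.44 and 2.87. For Ccr1, Ccr2 and Cx3cr1 the D2.1 values were -1.03, -0.05 and -0.87, and the interaction did not pass for any of the 3.

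**Figure D5:**
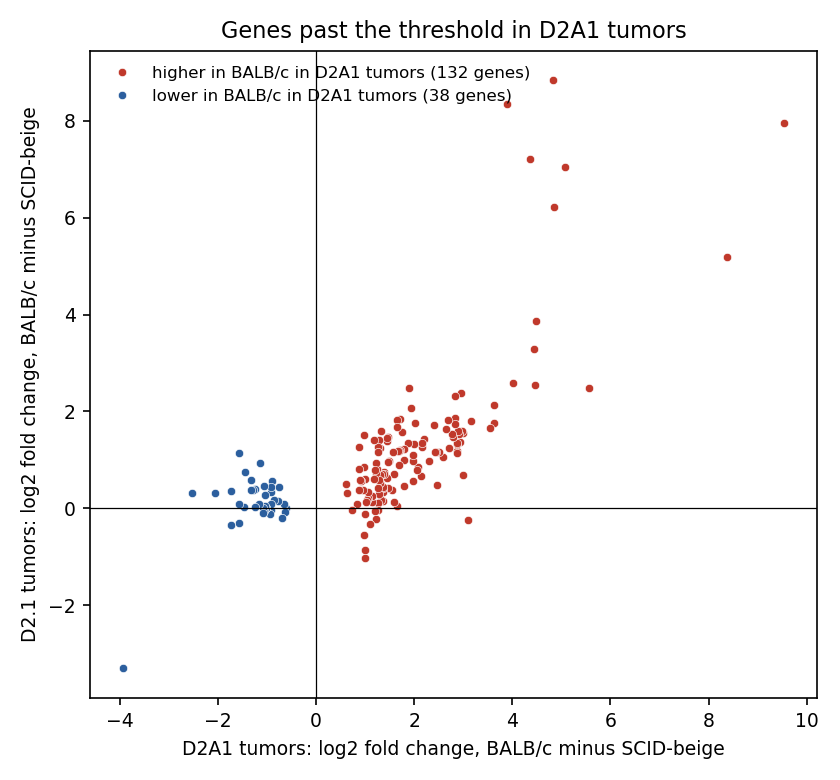
Log2 fold change (BALB/c minus SCID-beige) in D2.1 tumors against that in D2A1 tumors for the 170 genes past the threshold in D2A1 tumors, with each point 1 gene. Most of the 132 genes higher in D2A1 tumors lie above 0 in D2.1 tumors (122 genes), while the 38 lower genes gather around 0, with Snhg11 at -3.31 the lowest.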

How the data were processed

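RNA was measured in 18 tumors and 6 cultures, of which 9 D2A1 tumors (4 from BALB/c and 5 from SCID-beige mice, grouped by GEO's labels) are described, with 9 D2.1 tumors and 3 D2A1 cultures beside them. The read counts per gene were deposited by the authors as raw counts, and the submitters' processing notes name STAR and mm10. The counting program, annotation and strand setting are not given in the sources used here, so a gene and its antisense partner cannot be told apart. The FPKM values were deposited by the authors and were used only for levels per length. The members and gene lists were chosen with earlier results of these data known.

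Counts were filtered with filterByExpr, scaled by TMM and tested with edgeR 4.0.16 quasi-likelihood (R 4.3.3, limma 3.58.1), with host as the only term and Benjamini-Hochberg adjustment over all 14572 genes. The interaction was tested in 1 fit of 18 tumors. Scripts were tested on simulated data. Depth ranged from 13566949 to 17260171 counts per tumor, and floors of 3 counts and 95% intervals cover counting error only. Gene positions came from GENCODE M21 (37 identifiers without a match held 0.00708% of counts) and promoters from RefSeq. Named genes are protein-coding genes past the threshold, without overlap and with at least 1 CPM in the higher group (the 12 largest rises and falls), plus the list members past the threshold and defining markers, and a few of these are not reported here though counts include them (except the 138 groups examined for tumors set apart). Alternatives were DESeq2 1.42.0, voom, other size factors and filters, a fit of all tumors, a replicate block and leaving out each tumor, with a GC covariate added after seeing the data.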

Additional observations from a re-analysis of the deposited data

Results flagged for a closer look

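Of 138 groups (69 genes in both hosts), 4 held 1 tumor set apart by Dixon's test at the 95% level, which chance does for about 5% of groups. SCID-beige tumor 2 stood apart for Trbc2, at 0.497 CPM with the nearest at 0.0711. SCID-beige tumor 4 stood apart for Cd8b1, at 0.315 CPM with the nearest at 0.0711, and for Gbp8, at 2.02 CPM with the nearest at 0.853. BALB/c tumor 4 stood apart for Ighm, at 53.4 CPM with the nearest at 30.3.

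The host effect differed between D2A1 and D2.1 tumors for 3 genes by the edgeR interaction test (adjusted p = 0.0173 for each). The difference, D2A1 minus D2.1 on the log2 scale, was -2.39 for D630003M21Rik, -6.67 for Crmp1 and -4.62 for Trac. It passed in 18 of 22 alternatives for D630003M21Rik, in 15 for Crmp1 and in 15 for Trac.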

How the results depend on the processing

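All 170 genes kept their sign under all 18 alternatives of the host comparison, which reuse the tumors that chose the genes and so are not independent support. The count of 170 became 565 with DESeq2, 297 with voom, 862 with the GC slope of each library as a covariate (added after seeing the data) and 0 with the replicate number as a block (893 at an unadjusted p under 0.05). The share called higher was 77.6%, 61.6% with DESeq2 and 57.4% with the GC covariate. Leaving out 1 tumor gave 27 to 172. Of the gene lists, 59 members passed, 106 with DESeq2, 127 with the GC covariate, 0 with the block and 15 to 59 without 1 tumor. The interaction count of 3 became 102 with DESeq2, 6 with DESeq2 size factors and 7 with no filter, and 0 to 12 without 1 tumor. Same-numbered BALB/c and SCID-beige tumors had deviations correlated at -0.441 to -0.187. Differently numbered tumors were not compared, so these values cannot decide whether the numbers pair the tumors. The cause of these moves was not tested. Genes with few counts, such as Ifng and Foxp3, were not tested at this depth.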
